A study of Rattus norvegicus with 21 samples.

Results

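Livers of rats given the lowest of 5 doses of tert-butylphenyl diphenyl phosphate (BPDP) were compared with livers of rats given the corn oil vehicle alone. BPDP is a triaryl phosphate ester, a class of compounds used as flame retardants and plasticisers. The comparison rests on the 3 arrays whose titles give 64.6 mg/kg and the 6 arrays whose titles give 0 mg/kg, 9 of the 21 arrays of the series. All rats were male Harlan Sprague Dawley animals with no engineered allele, and their age is not given in the labels. Both groups were gavaged 4 times, on consecutive days, and liver was taken on day 5, so that vehicle rats share the oil and the handling with the dosed rats. A dose of 64.6 mg/kg is 0.169 mmol/kg, and the other 12 arrays hold 3 rats at each of 129.2, 258.1, 516.2 and 1032.5 mg/kg. The protocol counts 5 vehicle rats, but 6 arrays carry the vehicle title. Each was taken as a sample of its own, and if any pair came from 1 rat the p-values cover less than the spread between rats.

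The tissue label was checked against marker genes on the log2 scale of the arrays. The mean level of 11 hepatocyte markers averaged 14.4 on the vehicle arrays and 14.4 on the 64.6 mg/kg arrays, with Alb, the gene of serum albumin, at 15.35, 15.34 and 15.35 on the dosed arrays. The mean of 12 markers of pancreas, fat and muscle lay at 5.42 and 5.44 in the same order, and 7 of these 12 were below the lower quartile of the arrays. Pairs of the 21 arrays correlated at r of 0.984 to 0.995 across probe sets. Vehicle replicate 6 was the least like its group, at a mean r of 0.989 beside 0.993 for the others. Without it 74 probe sets were called in place of 77, and 48 of the 55 called genes stayed called. RNA integrity, read as the 5′ signal less the 3′ signal of the Gapdh and actin control probe sets, was -1.97 ± 0.26 (SD, n = 3) at 64.6 mg/kg and -1.95 ± 0.29 (n = 6) in the vehicle group (two-sided exact permutation test, p = 0.857, where 84 splits allow no p below 0.0238). Because whole pieces of liver were measured, fewer cells of a type and less RNA per cell cannot be told apart.

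Several of the genes that differed at this dose belong to known systems of the liver. The molecular clock is a feedback loop in which BMAL1, paired with CLOCK or its relative NPAS2, activates genes through E-box sequences, among them the genes of the PER and CRY proteins that then block the pair. REV-ERB alpha and beta, encoded by Nr1d1 and Nr1d2, repress Bmal1 through the ROR element, and the PAR bZIP factors DBP, TEF and HLF carry the rhythm to output genes through D-boxes, where NFIL3 opposes them. In liver these transcripts swing widely over the day. The xenobiotic receptors CAR and PXR and the oxidant sensor Nrf2 are known for inducing enzymes that hydrolyse, reduce and conjugate foreign compounds, and the fatty acid receptor PPAR alpha for inducing fat oxidation in rodent liver.

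Of 31042 probe sets, 77 were called at 64.6 mg/kg against vehicle (0.248%), 42 higher (0.135%) and 35 lower (0.113%), by limma with Benjamini-Hochberg adjustment at a threshold of 0.05. At an unadjusted p under 0.05 there were 2530. Leaving out replicate 1, 2 or 3 of the dose left 49, 46 and 42 calls, array weights gave 126 and a block for the replicate number gave 42. Each gene was represented by the brightest probe set naming it alone, which left 55 of 14217 genes called (0.387%), 28 higher (0.197%) and 27 lower (0.190%). In all 55 the 3 dosed arrays lay outside the range of the 6 vehicle arrays, a separation found in 5.43% of all genes (3.23% higher, 2.20% lower). Of the 55, 26 changed at least 2-fold and 9 by less than 1.5-fold. Of the 77 probe sets, 13 name no gene, 1 names several, and 8 are further probe sets of genes whose brightest probe set stands for them. Those 8 hold 3 that repeat a called gene and 1 each for Per2, Clock, Cyfip2, Zbtb12 and Ss18. In the text below "rose" and "fell" are kept for genes past this threshold, a level is a log2 signal, and a change is a difference of log2 levels with its standard error. The forest plot of called genes sets the changes at 64.6 mg/kg beside those at the top dose.

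**Figure D1:**
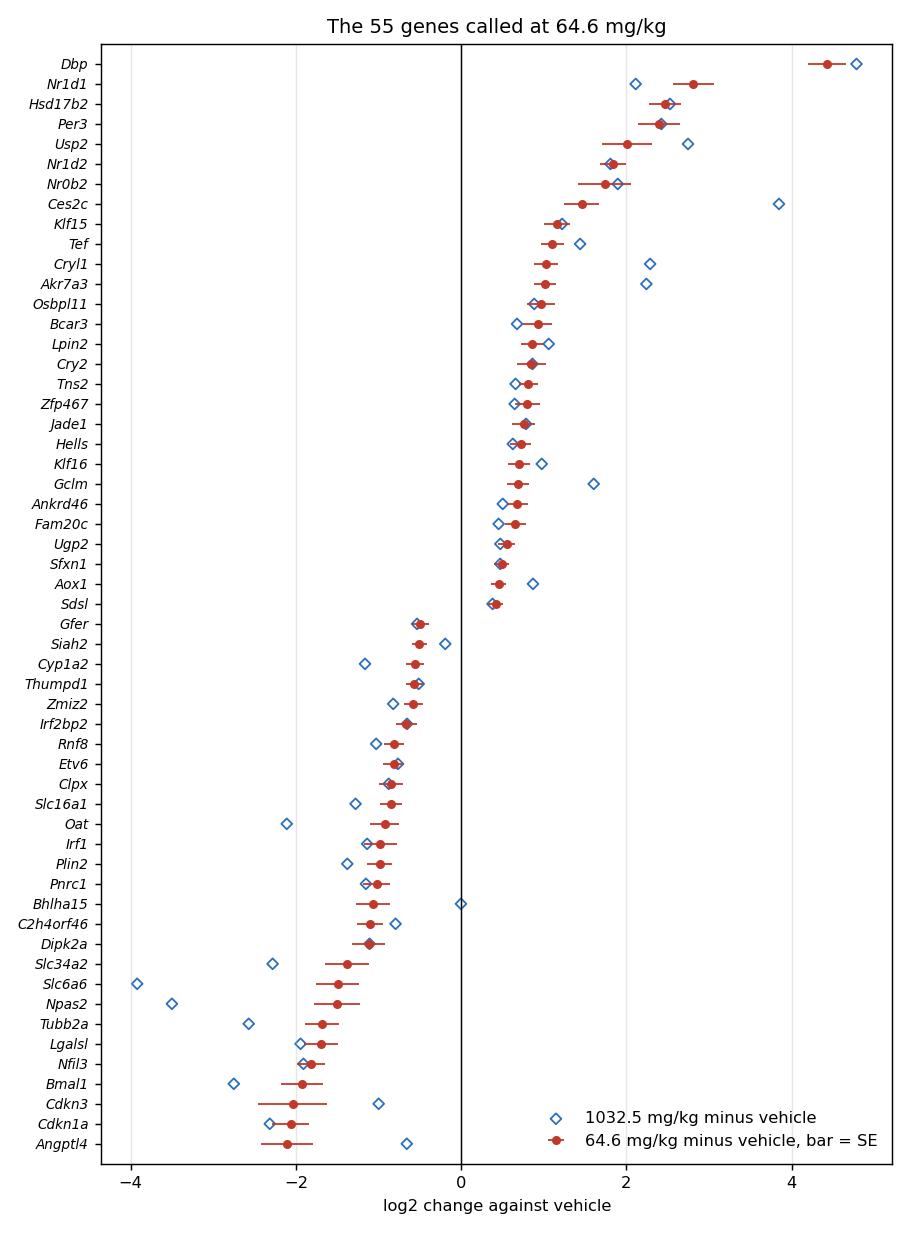
Log2 change against vehicle of the 55 called genes (vertical axis, ordered by change at 64.6 mg/kg). Filled circles with SE bars are 64.6 mg/kg minus vehicle, and open diamonds are 1032.5 mg/kg minus the same vehicle arrays. Dbp stands at 4.43 and Angptl4 at -2.11 at the lower dose, and Ces2c, Cryl1, Akr7a3 and Slc6a6 are among the genes whose diamond lies well beyond the circle.

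Of the 5 measured activators of the clock 2 fell at 64.6 mg/kg, Bmal1 and Npas2. Bmal1, the obligate partner of the activating pair, read 6.56, 6.34 and 6.89 on the 3 dosed arrays, whereas the vehicle arrays ran from 8.08 to 8.84 (median 8.55). The groups did not overlap, and Bmal1 fell 3.81-fold (change -1.93, SE 0.25, adjusted p = 0.000642). Npas2 read 7.47, 7.15 and 7.72 against a vehicle range from 8.77 to 9.11 (median 8.97). It too showed no overlap and fell 2.84-fold (change -1.51, SE 0.28, adjusted p = 0.0167), although the call did not hold without replicate 1 (adjusted p = 0.0994) or replicate 2 (0.133) of the dose. Clock, the other partner of BMAL1, read 8.81, 8.66 and 8.90 where the lowest vehicle array read 9.19, with a change of -0.45 that missed the threshold (adjusted p = 0.260). A second Clock probe set had a change of -0.47 and did pass (adjusted p = 0.0368). Rora and Rorb, the activators that compete with REV-ERB at the ROR element, had changes of -0.46 and -0.19 and overlapped with the vehicle (adjusted p = 0.714 and 0.475). All 5 measured activators had a change below 0, with a median of -0.46 where the median of all genes was close to 0, and the 2 that fell are to be read against 0.190% of all genes.

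Of the 9 measured repressors 4 rose, Nr1d1, Nr1d2, Per3 and Cry2, to be read against 0.197% of all genes. Nr1d1 read 9.04, 9.09 and 9.65, all above the highest vehicle array, in a vehicle range from 5.77 to 6.81 (median 6.62). It rose 7.02-fold (change 2.81, SE 0.25, adjusted p = 2.74e-06). Its relative Nr1d2 read 9.96, 10.26 and 10.38 and the vehicle arrays ran from 7.88 to 8.62 (median 8.46). The separation was again complete, and Nr1d2 rose 3.58-fold (adjusted p = 2.12e-06), with a second probe set at a change of 1.67 (adjusted p = 2.01e-05). Per3, a period gene, read 7.78, 7.31 and 7.86 against 4.83 to 5.46 (median 5.31) in the vehicle group. Its rise was 5.25-fold (change 2.39, SE 0.25, adjusted p = 3.76e-05), but a second Per3 probe set had a change of 0.18 (adjusted p = 0.671). Cry2, a cryptochrome, read 9.0, 8.83 and 9.05 against 7.58 to 8.42 (median 8.16). It rose 1.80-fold (adjusted p = 0.0361), but the call ended on leaving out any dosed array (adjusted p = 0.164, 0.103 and 0.215) or any of vehicle replicates 1, 3 and 5 (0.0717, 0.0659 and 0.0593), and a second, dimmer probe set was at -0.01 (adjusted p = 0.994).

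The other period and cryptochrome genes gave a mixed picture. Per1 read 8.16, 8.13 and 8.24, all above the highest vehicle array at 7.80, with a change of 0.51 that missed the threshold (adjusted p = 0.115). Cry1 read 7.53, 7.63 and 7.28, all below the lowest vehicle array at 7.97, and its change of -0.86 missed it as well (adjusted p = 0.115). The brightest Per2 probe set had a change of 0.26 without overlap that missed the threshold (adjusted p = 0.433), while a second Per2 probe set rose from a mean of 6.97 to 9.07, a change of 2.10 (SE 0.35, adjusted p = 0.00601). The 2 Per2 probe sets thus disagreed in size though not in direction. Bhlhe40 and Bhlhe41, which block E-box activation, had changes of 0.60 and 0.20 and overlapped with the vehicle (adjusted p = 0.729 and 0.821). No repressor fell, and 8 of the 9 had a change above 0, with a median of 0.60, where 49.2% of all genes lay above 0.

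The largest change of all 14217 genes was in the PAR bZIP group that links the clock to liver output. Dbp read 10.03, 10.47 and 10.13 at 64.6 mg/kg, more than 3 log2 units above every vehicle array, which ran from 5.44 to 6.10 (median 5.77). Its change of 4.43 (SE 0.23) was a 21.5-fold rise (adjusted p = 9.19e-10). Tef read 9.48, 9.68 and 9.60 against 8.25 to 8.69 (median 8.48), without overlap. It rose 2.15-fold (adjusted p = 0.000551), and a second Tef probe set at a change of 0.81 did not pass (adjusted p = 0.141). Hlf, the third member, had a change of 0.48 with overlap (adjusted p = 0.589). Nfil3, the repressor at the same D-boxes, moved the other way and read 8.87, 8.21 and 8.43 where the vehicle arrays ran from 10.00 to 10.68 (median 10.27). It fell 3.53-fold (change -1.82, SE 0.17, adjusted p = 6.36e-06). Calls of Dbp, Nr1d1, Nr1d2, Bmal1 and Nfil3 held under every alternative run, and those of Per3 and Tef under all but the second probe set. The clock lists were drawn up with earlier results of these arrays known, so their counts are no independent evidence of direction.

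**Figure D2:**
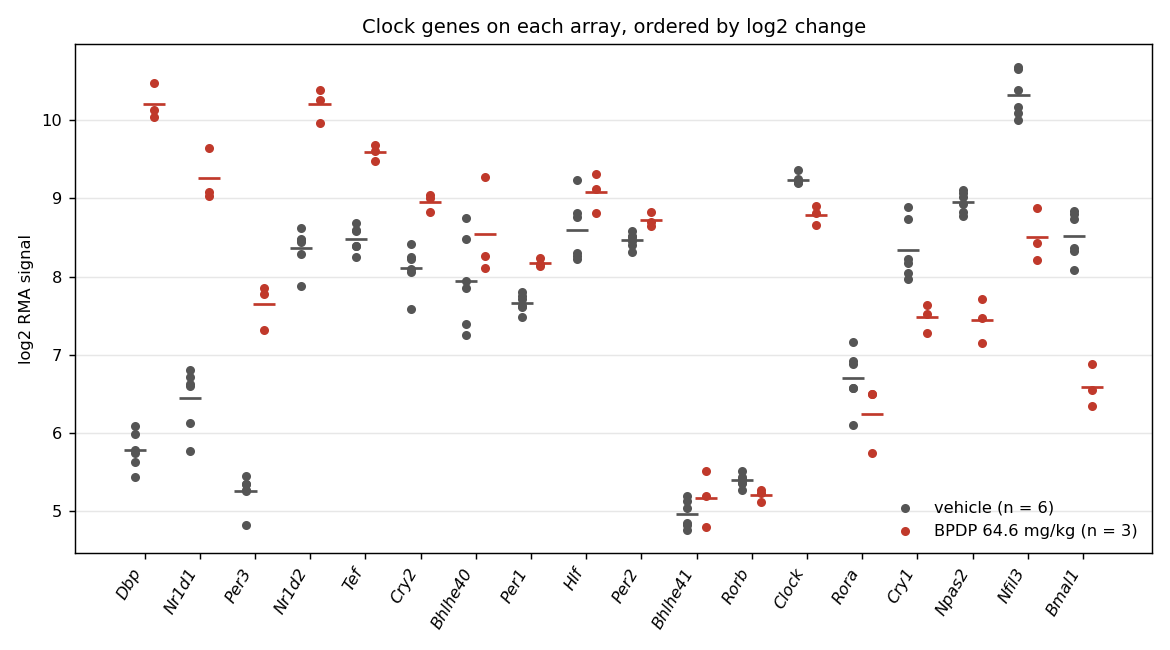
Log2 RMA signal (vertical axis) of the 18 measured clock and PAR bZIP genes on each vehicle array (grey, n = 6) and each 64.6 mg/kg array (red, n = 3), ordered by change, with a bar at the group mean. Of the called genes, Dbp, Nr1d1, Per3, Nr1d2, Tef and Cry2 stand wholly above the vehicle, and Bmal1, Nfil3 and Npas2 wholly below it. Per1, Per2, Cry1 and Clock do not overlap with it either but were not called.

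Usp2, a deubiquitinase gene whose transcript follows the clock in liver, read 8.67, 9.60 and 8.43 against a vehicle range from 6.24 to 7.35 (median 6.91). The groups were apart, and Usp2 rose 4.02-fold (change 2.01, SE 0.30, adjusted p = 0.00201). It was the 1 of 13 measured rhythmic output genes of liver that passed. The median change of these 13 was 0.09, and 6 of them had a change below 0. The others include Noct at 0.77 (adjusted p = 0.722), Tsku at 0.91 (0.669) and Rgs16 at -1.60 (0.444), all of which overlapped with the vehicle. The labels give neither the hour of sampling nor the feeding state of each group, so the part of either in the clock values was not tested.

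Among dosed rats the clock genes showed few called differences. Against the same 6 vehicle arrays, and in order of dose from 64.6 to 1032.5 mg/kg, the change of Dbp was 4.43, 4.25, 4.53, 4.44 and 4.78, that of Nr1d1 2.81, 2.73, 2.62, 2.48 and 2.11, and that of Nfil3 -1.82, -1.87, -1.75, -1.74 and -1.91. These comparisons share the vehicle arrays and are not independent of each other. A contrast that uses no vehicle array, 64.6 mg/kg minus the mean of the 4 higher doses, called none of the 18 clock and PAR bZIP genes: the difference was -0.07 (SE 0.21) for Dbp, 0.33 (0.23) for Nr1d1 and 0.32 (0.23) for Bmal1. Npas2 was the member with the widest gap to the top dose. It stood at -1.51 against vehicle here and -3.50 at 1032.5 mg/kg, and the contrast of 1032.5 with 64.6 mg/kg called it (adjusted p = 0.00192).

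Promoter sequence of the genes above is shown because these genes moved together and their known regulators bind short DNA words. RefSeq windows from 250 bases before to 50 bases after a gene's start (build GRCr8) were found for 24 of the 28 risen and 22 of the 27 fallen genes. Both strands were searched for the E-box CACGTG, the D-box TTATGTAA or TTACGTAA, the ROR element TAGGTCA and the core of the antioxidant response element bound by Nrf2, TGACNNNGC. The E-box was in 6.42% of all 33469 windows, in a window of 5 of the 24 risen genes (Bcar3, Klf15, Nr0b2, Nr1d1 and Tef) and of 3 of the 22 fallen genes (Plin2, Siah2 and Slc16a1). The ROR element was in 2.63% of windows, in none of the risen genes and in 2 of the fallen ones, Bmal1 and Rnf8. The D-box was in 1.01% of windows and in no called gene. The antioxidant core was in 12.1% of windows, 3 risen genes (Gclm, Klf15 and Usp2) and 3 fallen genes (Cdkn1a, Slc16a1 and Slc6a6). Some genes have several windows, so shares of genes and of windows are not on 1 footing, and a match describes the letters and is not a measured binding site. Windows of Dbp, Per3 and Nfil3 and the window at the first start of Nr1d1 held none of these words. Below are the 250 bases before the start of 5 genes chosen because they hold a match, with the matched word in capitals: the ROR element of Bmal1 16 bases before the start, E-boxes of Nr1d1 (191 before its second start), Tef (198) and Nr0b2 (193), and the antioxidant core of Gclm on the other strand (172).
Bmal1, chr1:176766078-176766327, + strand: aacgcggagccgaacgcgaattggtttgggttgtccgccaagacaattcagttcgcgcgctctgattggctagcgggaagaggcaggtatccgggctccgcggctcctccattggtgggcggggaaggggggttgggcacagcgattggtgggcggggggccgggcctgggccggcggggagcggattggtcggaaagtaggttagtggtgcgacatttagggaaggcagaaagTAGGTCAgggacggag
Nr1d1, chr10:84229455-84229704, - strand: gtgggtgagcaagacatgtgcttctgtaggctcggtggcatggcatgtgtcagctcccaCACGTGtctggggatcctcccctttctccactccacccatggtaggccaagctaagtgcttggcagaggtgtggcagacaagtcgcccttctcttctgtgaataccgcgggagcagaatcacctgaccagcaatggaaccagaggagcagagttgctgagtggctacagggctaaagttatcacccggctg
Tef, chr7:115206577-115206826, + strand: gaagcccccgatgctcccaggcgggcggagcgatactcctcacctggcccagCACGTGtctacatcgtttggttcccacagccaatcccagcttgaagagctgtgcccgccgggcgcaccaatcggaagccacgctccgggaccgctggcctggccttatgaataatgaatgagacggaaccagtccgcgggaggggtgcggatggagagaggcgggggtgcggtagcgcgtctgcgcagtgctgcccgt
Nr0b2, chr5:151062910-151063159, + strand: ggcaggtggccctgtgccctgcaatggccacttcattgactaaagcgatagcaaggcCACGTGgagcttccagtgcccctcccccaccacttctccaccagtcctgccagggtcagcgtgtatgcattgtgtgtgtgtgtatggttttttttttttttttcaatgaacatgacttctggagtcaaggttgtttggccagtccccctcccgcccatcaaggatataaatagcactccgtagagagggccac
Gclm, chr2:213031885-213032134, + strand: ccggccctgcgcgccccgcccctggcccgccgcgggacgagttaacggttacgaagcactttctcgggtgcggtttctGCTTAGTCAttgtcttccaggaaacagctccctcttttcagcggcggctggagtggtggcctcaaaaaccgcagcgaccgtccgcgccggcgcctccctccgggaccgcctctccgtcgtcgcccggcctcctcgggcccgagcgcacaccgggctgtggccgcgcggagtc

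Outside the clock the largest rise was in Hsd17b2, whose enzyme oxidises oestradiol and testosterone to less active ketones. It read 12.61, 13.09 and 13.40 on the dosed arrays and from 10.37 to 11.02 (median 10.48) on the vehicle arrays. The gap between the groups was wider than the range within either, and the rise was 5.52-fold (change 2.47, SE 0.20, adjusted p = 9.82e-07). It was the 1 member called among 16 steroid dehydrogenases and reductases, whose median change was 0.01. Nr0b2 encodes SHP, a nuclear receptor without a DNA-binding domain that represses bile acid synthesis. It read 10.67, 10.36 and 10.11 against 7.73 to 9.35 (median 8.62) and rose 3.34-fold (adjusted p = 0.0171), but leaving out any dosed array ended the call (adjusted p = 0.142, 0.0943 and 0.0596). It was the 1 call among 19 genes that make or carry bile acids, with a list median of 0.06. Cyp7a1, the rate-limiting enzyme of bile acid synthesis, read 12.20, 10.82 and 12.40 and overlapped a vehicle range from 9.87 to 11.86 (median 11.12), a change of 0.70 that did not pass (adjusted p = 0.714).

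Other risen genes encode nuclear proteins, as do several of the fallen genes described further on. Klf15, which drives amino acid catabolism and gluconeogenesis, read 10.20, 10.27 and 10.39 against 8.84 to 9.48 (median 9.12). It rose 2.23-fold (adjusted p = 0.000766), and its second probe set was at a change of 0.76 (adjusted p = 0.0792). The zinc finger gene Zfp467 read 9.13, 9.35 and 9.26 against 8.05 to 8.79 (median 8.49) and rose 1.74-fold. Jade1, a scaffold of a histone acetyltransferase complex, read 9.83, 10.20 and 10.00 against 9.05 to 9.57 (median 9.23) and rose 1.69-fold. A second Jade1 probe set was at 0.29 (adjusted p = 0.734). Hells, a chromatin remodelling helicase, read 8.37, 8.50 and 8.66 against 7.67 to 7.95 (median 7.77) and rose 1.65-fold. Adjusted p-values of these 3 were 0.0197, 0.0128 and 0.0143, and every dosed array of each lay above the vehicle arrays. Klf16, of the same family as Klf15, rose 1.62-fold (adjusted p = 0.0262). Among these 5 only the Klf15 call held with each array left out. That of Zfp467 was lost without any 1 of the dosed arrays (adjusted p = 0.062, 0.133 and 0.12). The calls of Jade1 (0.13 and 0.08) and Hells (0.0852 and 0.15) were lost without replicate 2 or 3 of the dose. The Klf16 call was lost without replicate 2 (0.199) or 3 (0.192) or vehicle replicate 4 (0.0538), 5 (0.0698) or 6 (0.0526).

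Among genes of lipid handling and cell adhesion, Lpin2, a phosphatidate phosphatase of triglyceride synthesis, read 9.73, 9.42 and 9.98 against 8.56 to 9.19 (median 8.86). It rose 1.81-fold (adjusted p = 0.00456; 0.0800 without replicate 3 of the dose), while its second probe set was at 0.09 (adjusted p = 0.933). Lpin2 was the 1 of 22 genes of fatty acid and triglyceride synthesis that was called, and 14 of the 22 had a change below 0 (median -0.14). Fasn, the fatty acid synthase, read 11.46, 11.15 and 10.36 and overlapped a vehicle range from 10.47 to 12.27 (median 10.86) (adjusted p = 0.959). Scd, the stearoyl-CoA desaturase, read 10.01, 10.84 and 8.87 where the vehicle ran from 9.76 to 12.26 (median 11.10), and its change of -1.29 had an SE of 0.54 (adjusted p = 0.519). Osbpl11, an oxysterol-binding protein relative, read 10.00, 9.40 and 9.96 against 8.35 to 9.05 (median 8.94) and rose 1.95-fold (adjusted p = 0.0134). Its call was lost without replicate 1 (0.141) or 3 (0.138). Tns2, a tensin of focal adhesions, read 8.75, 9.27 and 8.81 against 7.95 to 8.34 (median 8.12) and rose 1.76-fold (adjusted p = 0.00102). The signalling adaptor gene Bcar3 read 8.31, 8.44 and 8.86 against 7.39 to 7.79 (median 7.63) and rose 1.90-fold (adjusted p = 0.0241; 0.0934 and 0.239 without replicates 2 and 3, and 0.0515 without vehicle replicate 3). In all 4 risen genes of this paragraph the dosed arrays lay above the vehicle arrays.

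Smaller rises completed the 28. Ugp2, which makes UDP-glucose for glycogen, rose 1.46-fold and Sfxn1, a mitochondrial serine carrier, 1.40-fold. Aox1, the aldehyde oxidase, rose 1.37-fold, the serine dehydratase relative Sdsl 1.33-fold, the secretory pathway kinase Fam20c 1.58-fold and Ankrd46, an ankyrin repeat gene, 1.60-fold. Their adjusted p-values ran from 0.0172 for Ankrd46 to 0.0452 for Sdsl. Each of these 6 calls was lost on leaving out replicate 3 of the dose, at adjusted p = 0.242 for Ugp2, 0.0661 for Sfxn1, 0.235 for Aox1, 0.0641 for Sdsl, 0.147 for Fam20c and 0.203 for Ankrd46. Of the 9 arrays left out in turn, 7 ended the call of Aox1 and 5 each those of Ugp2 and Fam20c. For Sfxn1 the number was 3, at up to 0.141 without replicate 1, and for Ankrd46 it was 2. The Sdsl call was lost on leaving out any 1 of the 9 arrays, at up to 0.288. Second probe sets of Sfxn1 and Sdsl were at 0.37 and 0.33 (adjusted p = 0.328 and 0.360). Sdsl was also the 1 rise among 24 genes of amino acid breakdown and urea formation, where Oat was the 1 fall.

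Among the rises were 4 genes of metabolic enzymes, Ces2c, Akr7a3, Cryl1 and Gclm. Ces2c, a carboxylesterase that hydrolyses esters, read 10.54, 10.39 and 10.40, a tight cluster above a vehicle range from 8.52 to 9.21 (median 9.12). It rose 2.75-fold (change 1.46, SE 0.21, adjusted p = 0.00179). Akr7a3, an aldehyde reductase known for aflatoxin dialdehyde, read 12.29, 12.31 and 12.50 against 11.20 to 11.81 (median 11.26). Its rise was 2.02-fold (change 1.01, SE 0.14, adjusted p = 0.000850). Cryl1, a lambda-crystallin that acts as gulonate dehydrogenase, read 9.80, 9.49 and 9.98 against 8.37 to 9.15 (median 8.74) and rose 2.03-fold (adjusted p = 0.00135). Gclm, the modifier subunit of the enzyme that begins glutathione synthesis, rose 1.61-fold (adjusted p = 0.0304). Ces2c was also the 1 call among 12 carboxylesterases and paraoxonases (median -0.02). The calls of Ces2c, Akr7a3 and Cryl1 held under every alternative run, whereas that of Gclm was lost without replicate 2 (0.169) or 3 (0.235) of the dose or vehicle replicate 5 (0.0773).

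The contrast of 64.6 mg/kg with the mean of the 4 higher doses called 237 of 31042 probe sets (0.763%) and 160 of 14217 genes (1.13%), 43 of them higher at 64.6 mg/kg (0.302%) and 117 lower (0.823%). Its differences leave the vehicle out, though the spread behind its p-values comes from all 21 arrays. A fit of the dosed groups alone called 179 probe sets. The contrast shares the 3 arrays of the lowest dose with the comparison against vehicle, and rests on them. With replicate 1, 2 or 3 left out it called 66, 61 and 63 probe sets, whereas array weights gave 434. Ces2c, Akr7a3, Cryl1 and Gclm were the 4 of the 28 risen genes it called, and all were lower at 64.6 mg/kg than above it. The difference was -1.32 for Ces2c (SE 0.20, adjusted p = 0.00294), -0.85 for Akr7a3 (adjusted p = 0.00294), -0.68 for Cryl1 (0.0178) and -0.69 for Gclm (0.0115). The calls of Ces2c and Akr7a3 held with any 1 of the 15 arrays left out, that of Cryl1 was lost without replicate 1 (0.0847) or 2 (0.167) of the lowest dose, and that of Gclm without replicate 1 (0.114). In order of dose the change of Ces2c against vehicle was 1.46, 1.59, 2.60, 3.10 and 3.85 and that of Akr7a3 1.01, 1.35, 1.83, 2.02 and 2.24. Of 18 measured Nrf2 targets Gclm and Akr7a3 rose against vehicle, beside 0.197% of all genes, and none fell, with a list median of 0.06. Nqo1, a classical Nrf2 target, read 9.22, 9.78 and 8.81 and overlapped with the vehicle (change 0.34, adjusted p = 0.583). None of 21 conjugating enzymes was called at 64.6 mg/kg, although 18 had a change above 0 (median 0.17), led by Gstt3 at 0.74 (adjusted p = 0.115) and Ugt2b1 at 0.66 (0.0645).

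Of 21 targets of CAR and PXR, Ces2c was the 1 called at 64.6 mg/kg, with 17 changes above 0 and a median of 0.12. Cyp3a23-3a1, the main PXR-inducible cytochrome P450 of rat liver, read 13.29, 13.38 and 13.45 and overlapped with the vehicle (change 0.12, SE 0.14, adjusted p = 0.911). Alas1, the rate-limiting enzyme of haem synthesis, read 10.86, 10.68 and 10.72, inside the vehicle range (adjusted p = 0.891). Among 8 targets of the aryl hydrocarbon receptor, Cyp1a2, a major hepatic P450, fell 1.47-fold from a vehicle range of 13.30 to 13.66 (median 13.45) (adjusted p = 0.0212). The call was lost without replicate 1 (0.193) or 2 (0.130) of the dose or vehicle replicate 5 (0.0572). Cyp1a1, the most inducible target, read 6.24, 5.54 and 6.34 and overlapped with the vehicle (change 0.15, adjusted p = 0.940). Against vehicle at 1032.5 mg/kg the changes of Cyp1a2 and Cyp1a1 were -1.16 and 2.33.

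**Figure D3:**
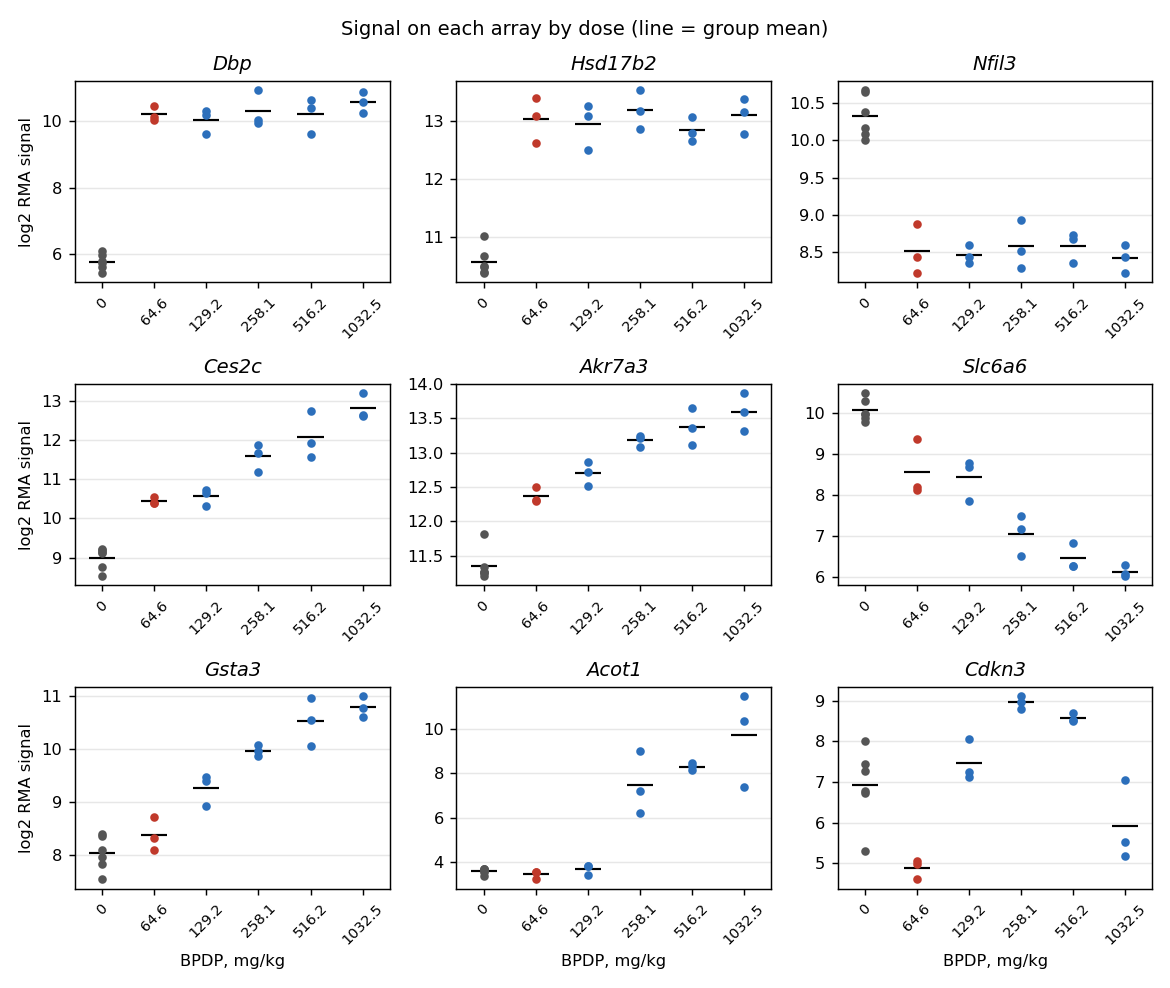
Log2 RMA signal (vertical axes) of 9 genes on every array, by dose in mg/kg on evenly spaced steps: vehicle grey (n = 6), 64.6 mg/kg red (n = 3), higher doses blue (n = 3 each), with a line at each group mean. Dbp, Hsd17b2 and Nfil3 leave the vehicle level at 64.6 mg/kg and stay there, Ces2c, Akr7a3 and Slc6a6 go on moving with dose, Gsta3 and Acot1 are near vehicle at 64.6 mg/kg, and Cdkn3 is lowest at 64.6 mg/kg.

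The genes with the largest differences below the higher doses were mostly not called against vehicle. Gsta3, a glutathione transferase, read 8.73, 8.10 and 8.33 at 64.6 mg/kg, overlapping a vehicle range from 7.54 to 8.39 (median 8.03), and the 12 arrays of the higher doses ran from 8.93 to 11.00 (median 10.07). Its change against vehicle was 0.35 (adjusted p = 0.697), and its difference from the higher doses -1.75 (SE 0.18, adjusted p = 6.24e-05). Abcc3, which exports conjugates into blood, read 8.03, 6.95 and 7.54 against 6.65 to 7.24 (median 6.94), and from 7.98 to 10.38 (median 9.55) at the higher doses (difference -1.88, adjusted p = 0.000790). Its change against vehicle was 0.57 (adjusted p = 0.585). Zfp354a, a zinc finger gene with a change of 0.92 against vehicle (adjusted p = 0.513), differed by -1.86 from the higher doses (adjusted p = 0.0147), and 2 of its 3 readings of 9.73, 9.08 and 9.59 exceeded the highest vehicle array at 9.41. Hdc, the histamine-forming decarboxylase, differed by -1.78 and the palmitoyltransferase gene Zdhhc2 by -1.57 (adjusted p = 0.00723 and 1.10e-05). Without replicate 1, 2 or 3 of the lowest dose the Zfp354a call was lost (0.0573, 0.116 and 0.0733), that of Hdc was lost without replicate 1 (0.0538) or 3 (0.0733), and those of Gsta3, Abcc3, Zdhhc2 and Acot1 held with each array left out. Acot1, a cytosolic acyl-CoA thioesterase induced by PPAR alpha, read 3.55, 3.57 and 3.23, at the level of the vehicle and below the lower quartile of the arrays in both groups. At the higher doses its arrays ran from 3.43 to 11.46 (median 7.75), so that the difference of -3.85 (adjusted p = 0.00141) has no exact fold.

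For PPAR alpha targets as a list, 64.6 mg/kg brought 2 falls and no rise against vehicle among 31 measured genes. The falls are to be read against 0.190% of all genes. Changes above 0 numbered 15, and the median was close to 0. The list's median against the higher doses was -0.48, where that of all genes was close to 0. Of the 31, 12 were called lower at 64.6 mg/kg, beside 0.823% of all genes, and none higher. Those 12 include Vnn1, a pantetheinase, at -1.30 (adjusted p = 0.00476), the thioesterase Acot2 at -1.16 (0.000648), the glycerol channel Aqp7 at -1.12 (0.00361) and Ehhadh, the peroxisomal bifunctional enzyme, at -0.85 (0.016). With replicate 1, 2 or 3 of the lowest dose left out the count was 4, 7 and 7. The calls of Acot2, Vnn1 and Aqp7 held with each array left out, and that of Ehhadh was lost without replicate 1 (0.105) or 3 (0.131). Against vehicle Ehhadh was at 0.72 without overlap but missed the threshold (adjusted p = 0.115). Cyp4a1, a fatty acid omega-hydroxylase, ran from 11.93 to 12.32 on the dosed arrays against 11.31 to 11.91 (median 11.69) (change 0.44, adjusted p = 0.656).

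The 2 PPAR alpha targets that fell handle stored and circulating fat. Angptl4, a secreted inhibitor of lipoprotein lipase, read 9.20, 8.72 and 9.97, all below a vehicle range from 10.98 to 11.98 (median 11.33). It had the largest fall of all called genes at 4.32-fold (change -2.11, SE 0.31, adjusted p = 0.00199), a call that held under every alternative run. Its change against vehicle in order of dose was -2.11, -0.97, -1.65, -1.22 and -0.66, and the contrast of 1032.5 with 64.6 mg/kg called Angptl4 higher at the top dose (adjusted p = 0.0480), though not with replicate 1 (0.144) or 2 (0.196) of the lowest dose or any 1 array of the top dose (up to 0.209) left out. Plin2, the main coat protein of hepatocyte lipid droplets, read 12.14, 11.92 and 12.03 against 12.72 to 13.40 (median 13.00). It fell 1.98-fold (adjusted p = 0.00212), but with the replicate block the adjusted p was 0.0707, and its second probe set at a change of -0.55 did not pass (adjusted p = 0.433). Angptl4 also stands on a list of 17 glucocorticoid-responsive genes, where it was the 1 call, while the median of that list was 0.36 and 12 of its changes were above 0.

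Among the falls were 3 transporter genes and 1 tubulin gene. Slc6a6, the taurine transporter, read 8.20, 8.13 and 9.38 against a vehicle range from 9.77 to 10.48 (median 9.97). Replicate 3 stood between the other dosed arrays and the vehicle. The fall was 2.81-fold (change -1.49, SE 0.26, adjusted p = 0.0107), lost without replicate 1 (0.134) or 2 (0.130), and its second probe set was at -1.26 (adjusted p = 0.0959). It went on with dose, with changes of -1.49, -1.62, -3.0, -3.59 and -3.92, and the level at 64.6 mg/kg was 1.54 above the mean of the higher doses (adjusted p = 0.00361; held with each array left out). Slc34a2, a sodium-phosphate cotransporter gene, read 9.10, 8.69 and 8.15 against 9.40 to 10.43 (median 10.15) and fell 2.61-fold (adjusted p = 0.0241; 0.115 and 0.239 without replicates 2 and 3, and 0.0515 and 0.0572 without vehicle replicates 3 and 5). Slc16a1, the lactate and ketone carrier MCT1, read 10.70, 10.81 and 10.97 against 11.43 to 12.09 (median 11.64) and fell 1.80-fold (adjusted p = 0.00305), with a much dimmer second probe set at 0.01 (adjusted p = 0.997). Tubb2a, a beta-tubulin, read 11.20, 10.58 and 10.67 against 12.26 to 12.77 (median 12.47). Its 3.22-fold fall (change -1.69, SE 0.21, adjusted p = 0.000245) was the 1 call among 9 tubulin genes, 7 of which had a change below 0 (median -0.37), and it held under every alternative run. Lgalsl, a galectin-like protein gene, read 8.68, 7.94 and 8.03 against 9.66 to 10.23 (median 9.89) and fell 3.25-fold (adjusted p = 0.000195), with a second probe set at -1.89 (adjusted p = 0.00174).

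Cdkn1a, the gene of p21, an inhibitor of cyclin-dependent kinases, read 7.98, 8.27 and 7.85, more than 1 log2 unit below every vehicle array in a range from 9.56 to 11.06 (median 10.01). It fell 4.18-fold (change -2.07, SE 0.22, adjusted p = 3.97e-05). A second Cdkn1a probe set was at -0.53 (adjusted p = 0.247). Cdkn1a was the 1 call among 12 p53 targets, whose median was -0.09. Irf1, an interferon-induced factor, read 8.42, 8.15 and 8.53 against 9.0 to 9.91 (median 9.26) and fell 1.97-fold (adjusted p = 0.0330), the 1 call among 18 interferon-stimulated genes (median -0.03). Its call was lost without any 1 of the dosed arrays (0.14, 0.195 and 0.0945) or vehicle replicate 3 (0.0542) or 5 (0.0801). Etv6, an ETS family repressor, read 5.64, 6.06 and 5.60 against 6.26 to 6.88 (median 6.58) and fell 1.76-fold (adjusted p = 0.00356; 0.0603 without replicate 3). Pnrc1, a nuclear receptor coactivator, read 10.32, 9.78 and 10.52 against 10.80 to 11.41 (median 11.30) and fell 2.03-fold (adjusted p = 0.00511; 0.0816 without replicate 2). Both Etv6 and Pnrc1 have a dim second probe set with changes of 0.02 and 0.08 (adjusted p = 0.983 and 0.905).

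Oat, the ornithine aminotransferase of mitochondria, read 9.88, 10.07 and 10.40 against 10.57 to 11.62 (median 11.04) and fell 1.90-fold (adjusted p = 0.0219), lost without replicate 1 (0.177) or 2 (0.130) or vehicle replicate 5 (0.0558). Clpx, the ATPase subunit of a matrix protease, read 10.62, 10.56 and 10.76 against 11.30 to 11.61 (median 11.57) and fell 1.80-fold (adjusted p = 0.00759; 0.0617 and 0.0797 without replicates 1 and 2). Dipk2a, a divergent kinase-like gene, read 9.08, 9.35 and 9.84 against 10.13 to 10.92 (median 10.55) and fell 2.18-fold (adjusted p = 0.0159; 0.159 and 0.113 without replicates 1 and 2). Dimmer Dipk2a probe sets were at -0.07 and -0.10 (adjusted p = 0.907 and 0.886). C2h4orf46, an open reading frame with no named function, read 5.67, 5.06 and 5.15 against 6.16 to 6.76 (median 6.36). It fell 2.15-fold (adjusted p = 0.00143) and held under every alternative run, as did Rnf8, a ubiquitin ligase of the DNA damage response, which fell 1.76-fold (adjusted p = 0.00199). Besides Cyp1a2, described above at 1.47-fold, the smallest falls were those of the transcriptional cofactors Irf2bp2 and Zmiz2, the RNA-binding protein gene Thumpd1, the ubiquitin ligase Siah2 and the sulfhydryl oxidase Gfer, between 1.58-fold and 1.41-fold (adjusted p from 0.0126 for Siah2 to 0.0412 for Gfer). Each of those 5 calls was lost without at least 1 dosed array, at up to 0.212, 0.205, 0.143, 0.133 and 0.285 in the order named. Of the 9 arrays left out in turn, 7 each ended the calls of Zmiz2 and Gfer and 5 that of Irf2bp2, vehicle arrays among them. For Thumpd1 and Siah2 the number was 2. A second Irf2bp2 probe set was at -0.40 (adjusted p = 0.304).

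Of the cell cycle genes 1 was called at 64.6 mg/kg. Cdkn3, a phosphatase of cyclin-dependent kinases, read 4.60, 4.97 and 5.06 at 64.6 mg/kg, and the vehicle arrays ran from 5.31 to 8.0 (median 7.02). Its mean fell from 6.92 ± 0.92 (SD, n = 6) to 4.88 ± 0.24 (n = 3), a level below the lower quartile of the arrays, so that no fold is given (adjusted p = 0.0397). That call is weak, since it was lost on leaving out any of the dosed arrays (0.204, 0.139 and 0.15) or vehicle replicate 1 (0.0717), 2 (0.0536), 4 (0.0744), 5 (0.0801) or 6 (0.0756). Its group means at the 4 higher doses were 7.47, 8.96, 8.57 and 5.92, and the contrast with those doses called it lower at 64.6 mg/kg (difference -2.85, SE 0.38, adjusted p = 0.00118). Of the 37 cell cycle genes measured, Cdkn3 alone fell and none rose, but 35 changes were below 0 (median -0.32), where 50.8% of all genes lay below 0. Mki67, the proliferation antigen, had means of 5.39 in the vehicle group and 4.44 at 64.6 mg/kg, below the same quartile (adjusted p = 0.293). Cdk1, the mitotic kinase, was at -1.03 (adjusted p = 0.285) and Top2a, a topoisomerase of dividing cells, at -0.58 (0.438).

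Against the 4 higher doses, with the same 3 dosed arrays, 34 of the 37 cell cycle genes lay below 0 (median -0.38). Over all genes 50.1% lay below 0. Called lower at 64.6 mg/kg were 7 of the 37, beside 0.823% of all genes. Besides Cdkn3 they were Ect2, a cytokinesis regulator, and Hmmr, a spindle protein gene, whose means of 4.75 and 5.03 at 64.6 mg/kg were under the lower quartile of the arrays, so that no size is given (adjusted p = 0.0483 and 0.0443). The others were the cyclin gene Ccnb2 at -1.20 (adjusted p = 0.0183), the kinesins Kif20a at -0.80 (0.0411) and Kif11 at -0.68 (0.00775), and the thymidine kinase Tk1 at -0.38 (0.0371). With replicate 1, 2 or 3 of the lowest dose left out the count was 1, 1 and 2 in place of 7. The Cdkn3 call held with any 1 of the 15 arrays left out, Kif11 was lost without replicate 1 (0.0668) or 2 (0.0584), and the other 5 without any 1 of the 3. The mean level of the 37 genes per array ran from 5.83 to 6.73 in the vehicle group and from 5.82 to 5.91 at 64.6 mg/kg, so that the dosed arrays sit at the low end of a wide vehicle range and do not leave it as a group. Leaving out single arrays moved the list's median against vehicle between -0.42 and -0.23 and the number of falls between 0 and 3. At the top dose against vehicle 27 of the 37 genes also lay below 0 (median -0.21), with 1 called higher and 1 lower. Between 64.6 mg/kg and the next dose no probe set was called. A low level particular to 64.6 mg/kg was therefore not shown for the list as a whole.

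**Figure D4:**
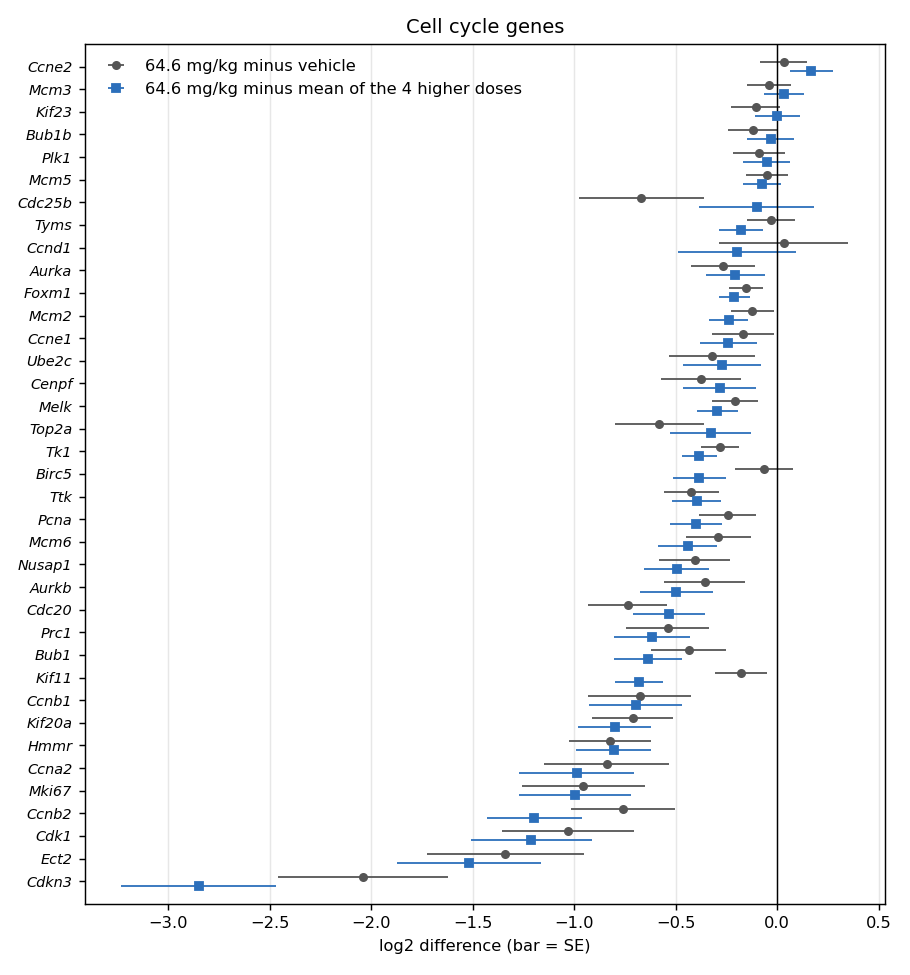
Log2 difference, with SE bars, of the 37 measured cell cycle genes (vertical axis). Circles are 64.6 mg/kg minus vehicle and squares 64.6 mg/kg minus the mean of the 4 higher doses; both use the same 3 dosed arrays. Nearly all points lie left of 0, with Cdkn3 lowest. Several of these genes are near or below the lower quartile of the arrays at 64.6 mg/kg, Cdkn3, Ect2 and Mki67 among them, so their distances from 0 are not exact.

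A few genes lay further from the vehicle at 64.6 mg/kg than in the mean of the 4 higher doses. Between 64.6 mg/kg and the next dose no probe set was called, so a difference from that dose alone was not shown. Bhlha15, a factor of secretory cells, read 6.62, 6.11 and 5.62 against 6.84 to 7.45 (median 7.27) and fell 2.10-fold (adjusted p = 0.0251), lost without replicate 2 (0.130) or 3 (0.256) or vehicle replicate 1 (0.0627), 3 (0.0517) or 5 (0.0671). It was lower than at the higher doses (difference -0.82, adjusted p = 0.0475), a call lost with 10 of the 15 arrays left out in turn, at up to 0.363 without replicate 3. Its mean was 7.18 at 1032.5 mg/kg and 7.19 in the vehicle group. Cux2, a factor known as female-biased in rodent liver, read 6.29, 7.69 and 5.82, all above a vehicle range from 5.16 to 5.66 (median 5.37), with a wide spread. Its change of 1.22 missed the threshold (adjusted p = 0.0621), but it was higher than at the 4 higher doses (difference 1.22, SE 0.24, adjusted p = 0.0198; 0.0538 and 0.142 without replicates 1 and 2). Resp18, a secretory granule protein gene, read 5.75, 5.05 and 5.63, all below the vehicle arrays (change -1.07, adjusted p = 0.263), and was lower than at the higher doses by -1.36 (adjusted p = 0.0355; 0.0969, 0.221 and 0.129 without replicates 1, 2 and 3).

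Of the other genes called higher at 64.6 mg/kg than in the mean of the higher doses, the 8 named here had smaller changes against vehicle, none of them called. They include the reelin adaptor Dab1 (difference 1.27, adjusted p = 0.0178), the protocadherin Pcdh18 (1.0, 0.0148), the spindlin Spin2b (1.39, 0.0343), the cytokine Il33 (0.91, 0.0328) and the phosphatase relative Mtmr7 (0.92, 0.0235). Abhd2, a lipid hydrolase, Hyal3, a hyaluronidase, and the transporter Abca8a followed at 0.80, 0.77 and 0.76 (adjusted p = 0.00674, 0.00641 and 0.00294). Only the Abca8a call held with each array left out. Each of the others was lost without at least 1 array of the lowest dose, at up to 0.17 for Dab1, 0.108 for Pcdh18, 0.263 for Spin2b, 0.26 for Il33, 0.131 for Mtmr7, 0.0699 for Abhd2 and 0.061 for Hyal3. Against vehicle the changes of these 8 lay between -0.07 for Spin2b and 0.52 for Mtmr7. Il33 was at 0.45, so its gap to the higher doses and that of Mtmr7 lay partly above the vehicle mean.

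Between 64.6 and 129.2 mg/kg limma called no probe set (0.00%), with 1546 at an unadjusted p under 0.05. Array weights gave 206 and a fit with only those 2 groups gave 4. Between 1032.5 and 64.6 mg/kg 458 of 31042 probe sets (1.48%) and 308 of 14217 genes (2.17%) were called, 184 of the genes higher at the top dose (1.29%) and 124 lower (0.872%). Of the 55 genes called at 64.6 mg/kg against vehicle this contrast called Ces2c, Cryl1, Akr7a3, Gclm, Oat, Slc6a6, Npas2 and Cyp1a2 further from the vehicle at 1032.5 mg/kg and Bhlha15 and Angptl4 nearer to it. With replicate 1, 2 or 3 of the lowest dose left out this contrast called 287, 270 and 228 probe sets, and 213 without replicate 2 of the top dose. The Cyp1a2 call was then lost without replicate 3 of the lowest dose (0.0863) or replicate 2 of the top dose (0.0613), and that of Bhlha15 without replicate 2 (0.0786) or 3 (0.161) of the lowest dose or replicate 1 of the top dose (0.133). The other 45 were not called between those doses, which does not show that they are equal.

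The remaining lists had few or no calls at 64.6 mg/kg. None was called among 19 genes of cholesterol synthesis and uptake, though 17 were below 0 (median -0.16), 20 of glucose handling (median close to 0, with Pck1, the gluconeogenic carboxykinase, at 0.35), 19 immediate early genes, 22 of the amino acid and ER stress responses, 12 heat shock proteins, 19 acute phase proteins and 19 sex-biased genes. Nor was any marker of other cells called. Changes were below 0 for 10 of 10 Kupffer cell and macrophage markers (median -0.11), 13 of 15 stellate cell and fibroblast markers (-0.28), 12 of 15 lymphocyte and NK cell markers (-0.14), 8 of 12 endothelial markers (-0.06), 4 of 7 bile duct markers (-0.08), 4 of 6 neutrophil markers (-0.13) and 6 of 6 red cell markers (-0.31). The mean level of the stellate list ran from 8.13 to 8.56 on the vehicle arrays and from 7.92 to 8.23 at 64.6 mg/kg, and that of the Kupffer list from 9.77 to 10.3 and from 9.54 to 10.3. Their part in the falls above was not tested.

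**Figure D5:**
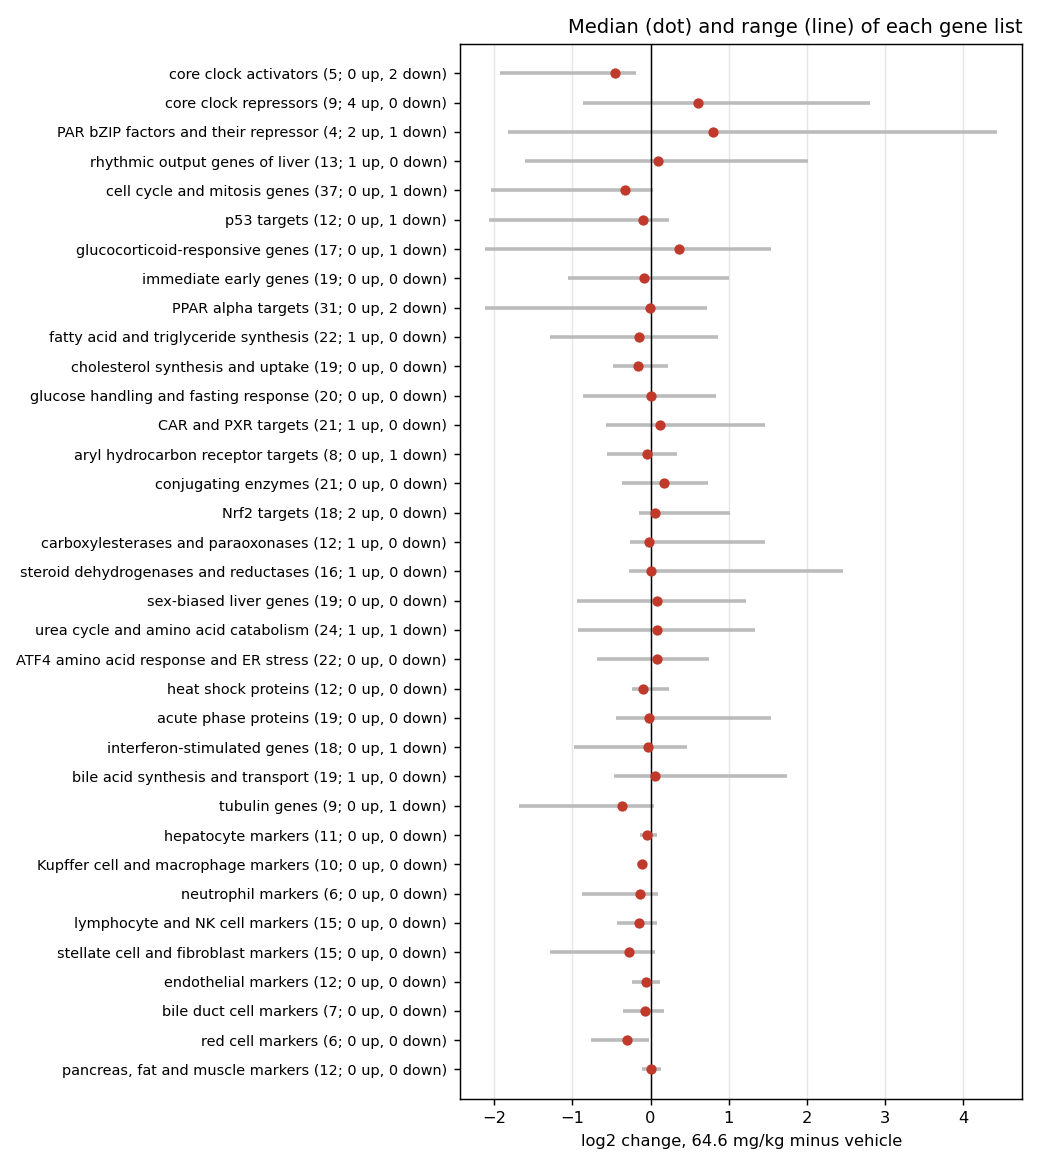
Log2 change at 64.6 mg/kg against vehicle (horizontal axis) for 35 gene lists: the dot is the median and the line runs from the lowest to the highest member, with measured members and the numbers called up and down in each label. The clock repressors and PAR bZIP lists have the medians furthest above 0, at 0.60 and 0.79, and most other medians lie close to 0.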

How the data were processed

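Liver RNA of male rats (100 ng total RNA per sample, biotin-labelled) was hybridised to 21 Affymetrix rat arrays, 1 array per sample. The 9 arrays of the vehicle and 64.6 mg/kg groups form the main comparison. The deposited values are log2 signals made by the authors with RMA, per the submitters' processing notes. The RMA software and its version are stated in none of the sources used here. RMA puts all arrays on 1 distribution, so a shift of most genes together would not be visible, and array number limits the precision.

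The 57 control probe sets were left out of the tests. limma 3.58.1 in R 4.3.3 (lmFit and eBayes, 6 group means over all 21 arrays, 15 residual degrees of freedom) gave every adjusted p, two-sided, with Benjamini-Hochberg adjustment over 31042 probe sets and a threshold of 0.05; the code was tested on simulated data. Probe sets were named through the platform annotation, with symbols updated in RefSeq GRCr8, and a gene was read from its brightest probe set naming it alone. Levels of different probe sets were not compared.

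Named were all called genes, all core clock and PAR bZIP genes, called members of 35 lists (540 of 622 symbols measured) or the brightest members where none was called, the 10 largest differences each way from the higher doses, and some index genes; further members of the output, conjugating enzyme, PPAR alpha and cell cycle lists (Noct, Tsku, Rgs16, Gstt3, Ugt2b1, Acot2, Vnn1, Aqp7, Ehhadh, Mki67, Cdk1, Top2a and those called against the higher doses), and Cyfip2, Zbtb12 and Ss18, were named after their values were seen. Members and lists were chosen with earlier results of these data known. Replicate numbers were not taken as pairing the arrays in the main fit. Alternatives were other scalings, a brightness filter, variance models, array weights, a replicate block, an integrity covariate, other probe sets and leaving out each array.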

Additional observations from a re-analysis of the deposited data

Results flagged for a closer look

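Single vehicle arrays stood far from the other 5 in 12 of 125 values tested, by the gap of the end value over the range of the group set against the published critical value for 6 samples. Chance gives about 1 in 20 such values. Among called genes, Per3 read 4.83 on vehicle replicate 2, Akr7a3 11.8 on replicate 4 and Sdsl 7.93 on replicate 6. Clock read 9.36 on replicate 2. Of the genes that differed from the higher doses, Il33 read 8.94 on replicate 2, Pcdh18 8.71 on replicate 6 and Zdhhc2 6.30 on replicate 3. Of the cell markers, the endothelial genes Fcgr2b and Lyve1 read 9.66 and 9.65 and Hbb of red cells 12.3, all on replicate 1, and S100a9 of neutrophils read 9.29 on replicate 6. The mean r of replicate 6 to its own group was 0.989. In all, 4 of the 12 values were on replicate 6. Without replicate 6, 48 of the 55 called genes stayed called and 7 did not.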

How the results depend on the processing

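Against vehicle, 77 probe sets were called. Array weights gave 126, the replicate block 42, and leaving out 1 array 42 to 88. The other alternatives gave 58 to 92 calls: 58 with only both groups fitted, 90 after cyclic loess, 72 after median centring, 80 without the dimmer probe sets, 66 with 1 probe set per gene, 79 with a trended robust variance, 92 with the integrity covariate and 61 with a fold minimum of 1.5. Same-numbered arrays of both groups deviated with correlations of -0.058, -0.139 and -0.084, which gave no sign of pairing by number. These 3 values are too few to settle whether the number marks a batch. Vehicle replicates 4 to 6 stand alone in their blocks, and 26 of the 55 genes kept their call under the block. With only both groups fitted 33 of the 55 kept their call and 22 lost it. Cyp1a2 (adjusted p = 0.147), Gclm (0.137), Cdkn3 (0.123) and Oat (0.106) were among those lost. Of the 55, 16 were called under every alternative run and 22 with any 1 array left out. The next brightest probe set turned the direction of 4 called genes: Cry2 to -0.0072, Etv6 to 0.025, Slc16a1 to 0.0061 and Pnrc1 to 0.084 (log2). The cause was not tested. Of 19 called genes with such a probe set, 3 kept the call, 12 lost it and 4 turned. Between 129.2 and 64.6 mg/kg, where no probe set was called, array weights gave 206 calls and only those groups 4. Between 1032.5 and 64.6 mg/kg, with 458 calls, only those groups gave 284, array weights 820 and leaving out arrays 213 to 380. For 64.6 mg/kg against the 4 higher doses, with 237 calls, array weights gave 434, a fold minimum of 1.5 left 110, and leaving out arrays gave 61 to 277. With 3 dosed arrays, and signals such as those of Cdkn3 and Acot1 below the lower quartile, smaller changes of dim genes were not resolved.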
